A study of Rattus rattus with 10 samples.

Results

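The genes described here serve the last phase of sperm formation, in which a haploid spermatid packs its chromatin, forms an acrosome and builds a tail. They were taken from a list of 44 gene symbols. Of these, 40 had a probe set with a single symbol in the platform's annotation, among 14217 genes named that way, and every gene is represented by 1 probe set, the one with the highest mean signal over the 10 arrays. Fscb, Adam3, Fhl5 and Tssk4 had no such probe set and were not analysed here. All 40 passed the filter on low signal and were tested, Hspa1l through only 2 arrays.

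Each array measured RNA of whole testis from adult Long-Evans rats, 60 days old. The rats had received 1 intraperitoneal injection of gamendazole at 6 mg/kg, of lonidamine at 25 mg/kg, or of the vehicle, buffered DMSO. Gamendazole and lonidamine each had 1 array at 4, 12 and 24 h, and vehicle had 1 array at 0, 4, 12 and 24 h. No treatment was replicated at an hour, and the labels do not say how many animals an array stands for or whether RNA was pooled. The 2 drugs were given at different doses, so their values stand side by side and were not tested against each other. Because whole testis was measured, fewer spermatids and less RNA per spermatid cannot be told apart.

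In a spermatid, transition proteins first displace the histones and protamines then condense the DNA, which shuts transcription down. Many messages for protamines and tail proteins are therefore made early, in round spermatids, and stored as protein-bound RNA until they are translated. Gamendazole and lonidamine are antispermatogenic compounds, known for loosening the junctions that hold spermatids to Sertoli cells, so that spermatids leave the epithelium before they are mature. The comparisons ask whether messages of these cells were already lost from the testis within a day.

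The signals are linear intensities that the authors scaled so that every array had the same trimmed mean, 500. The scaling leaves out the brightest 2% of probe sets, those above a mean signal of 7459, and 27 of the 40 genes lie in that part. A mean signal of 10000 or more was reached by 24 of them and 20000 or more by 12. Signals of different probe sets do not rank transcripts, so brightness is used below only to choose probe sets for comparison. Correlations of log2 signals between vehicle arrays lay between 0.977 and 0.979, and the lowest between any 2 arrays was 0.943. Per the instrument records, every treated array except gamendazole 4 h shared its hybridisation run with the vehicle array of its hour. RNA integrity, read from the 3'/5' signal ratio of the beta-actin control, ranged between 1.85 and 2.0.

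Messages of the 40 genes were close to their vehicle levels, most a little lower. The 40 genes together made up 2.66 to 2.89% of all array signal after gamendazole (mean 2.81 ± 0.129, SD, n = 3 hours) and 2.70 to 2.87% after lonidamine (2.81 ± 0.0925, n = 3), against 2.94 to 3.03% with vehicle (2.99 ± 0.0354, n = 4). The treated ranges lay below the vehicle range with both drugs. Averaged over the 3 hours, 38 of 40 log2 differences from vehicle were negative with gamendazole and 39 of 40 with lonidamine, with medians of -0.13 for each drug. Over all 17549 tested probe sets the medians were -0.03 with gamendazole and -0.01 with lonidamine. Another scaling moved these values: after cyclic loess, 21 of 40 were negative with gamendazole and 26 of 40 with lonidamine, and after quantile normalization 30 and 31.

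Few single differences passed the test across hours. With gamendazole, 1 of the 40 was lower at an adjusted p under 0.05 (limma, 9 arrays, treatment and hour as factors, Benjamini-Hochberg adjustment over all 17549 probe sets), where 0.473% of all tested probe sets were called lower, and 0 were higher, where 3.48% were. With lonidamine 0 of the 40 passed in either direction (limma; 19 were lower at an unadjusted p under 0.05), where 0.0114% of all were called lower and 0.769% higher. The gamendazole count was 15 without the 4 h arrays and 14 without the gamendazole 4 h array alone, and 0 without the 12 h arrays. Calls over all probe sets, in either direction, moved with it: 693 became 1646, 1162 and 0 in that order. The lonidamine count was 2 without the 4 h arrays, where calls over all probe sets went from 137 to 600. At an unadjusted p under 0.05, 21 of 40 were lower with gamendazole, where 9.03% of all probe sets were, and 19 of 40 with lonidamine, where 4.75% were. Bright probe sets were lower far more often than all together: of those with a mean signal of 10000 or more, 19 of 24 of these genes and 197 of 366 others (53.8%) were lower with gamendazole at that p, and 18 of 24 and 177 of 366 (48.4%) with lonidamine. Hours stand in for replicates in these tests.

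**Figure D1:**
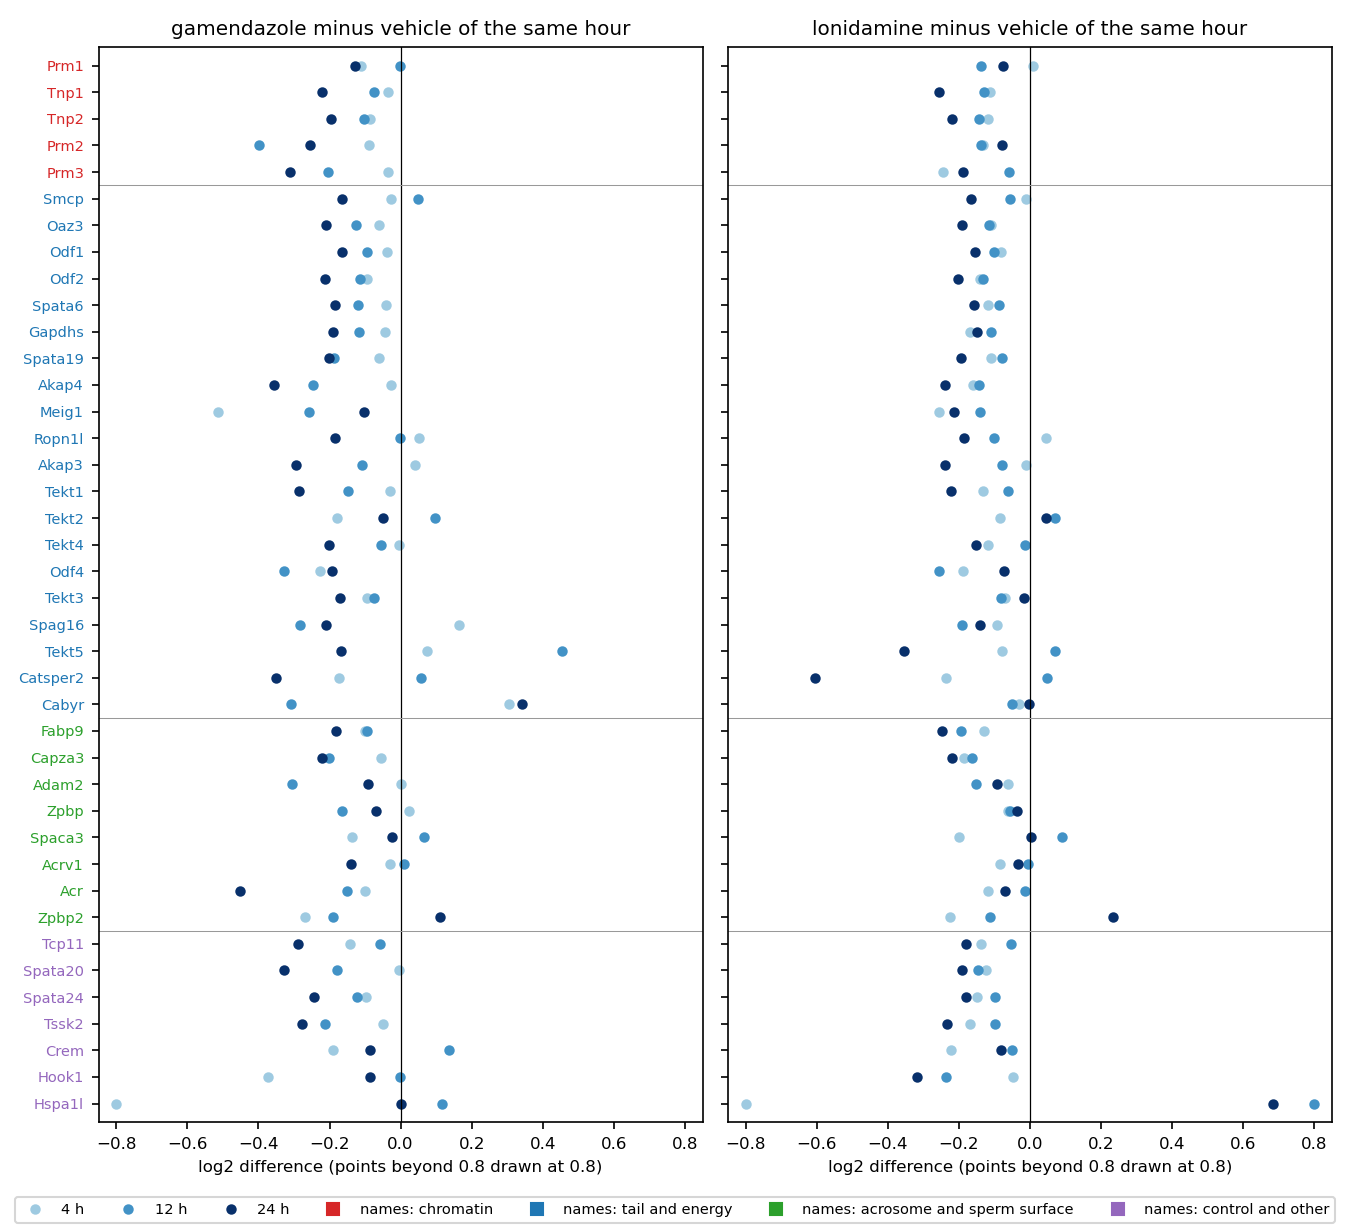
Log2 difference of each of the 40 genes from the matching vehicle array (horizontal axis) after gamendazole (left) and lonidamine (right), 1 point for each hour, with darker points for later hours and gene names coloured by role. Most points lie left of 0, with 38 of 40 averages negative after gamendazole and 39 of 40 after lonidamine on the deposited scale, while after cyclic loess the counts were 21 and 26.

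The chromatin genes comprise the protamines Prm1 and Prm2, of the family that condenses sperm DNA, and their cluster neighbour Prm3. They also include the transition proteins Tnp1 and Tnp2, which displace the histones beforehand. Their summed signal read 155128, 158447 and 140091 at 4, 12 and 24 h after gamendazole and 154426, 155619 and 143724 after lonidamine, against 163482, 163746, 170194 and 160546 with vehicle at 0, 4, 12 and 24 h. Every treated sum was below every vehicle sum, and both drugs had their lowest sum at 24 h. The median log2 difference over the 5 genes was -0.13 with gamendazole and -0.16 with lonidamine on the deposited scale, but 0.03 and -0.01 after cyclic loess. None of the 5 passed the averaged test (limma; 4 with gamendazole and 3 with lonidamine at an unadjusted p under 0.05).

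Prm1, whose probe set was the brightest on all 10 arrays, read 52214, 56105 and 48278 at 4, 12 and 24 h after gamendazole and 56704, 51088 and 50088 after lonidamine, against 56099, 56395, 56158 and 52779 with vehicle at 0, 4, 12 and 24 h. The ranges overlapped: gamendazole 12 h and lonidamine 4 h lay within or above the vehicle values, and vehicle 24 h was the lowest vehicle array. The averaged difference was -0.08 ± 0.04 with gamendazole (log2 ± standard error, limma adjusted p = 0.354) and -0.07 ± 0.04 with lonidamine (adjusted p = 0.59).

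Prm2 read 19159, 16180.4 and 16048 at 4, 12 and 24 h after gamendazole and 18593, 19380.2 and 18123 after lonidamine, against 20093, 20376, 21316 and 19150.3 with vehicle at 0, 4, 12 and 24 h. All 4 vehicle arrays stood above gamendazole 12 and 24 h, while gamendazole 4 h read about the same as vehicle 24 h. The averaged gamendazole difference was -0.25 ± 0.06 (limma adjusted p = 0.0513), just short of the threshold, and the lonidamine difference was -0.12 ± 0.06 (adjusted p = 0.467). Prm3 read 15019, 13175 and 12188 at 4, 12 and 24 h after gamendazole and 12998, 14565 and 13274 after lonidamine, against 15186, 15397, 15169.9 and 15132 with vehicle at 0, 4, 12 and 24 h. Its vehicle arrays were tight and every treated array lay below them, although the averaged differences of -0.18 ± 0.07 with gamendazole and -0.16 ± 0.07 with lonidamine did not pass (limma adjusted p = 0.168 and 0.351).

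Tnp1 read 37401, 40898 and 34013 at 4, 12 and 24 h after gamendazole and 35494, 39403 and 33175 after lonidamine, against 39934, 38347, 43083 and 39616 with vehicle at 0, 4, 12 and 24 h. The 24 h arrays of both drugs were lowest, and both 12 h treated arrays lay below the 12 h vehicle array but within or above the range of the other vehicle arrays. Tnp2 read 31334, 32088 and 29563 at 4, 12 and 24 h after gamendazole and 30637, 31183 and 29064 after lonidamine, against 32169.5, 33232, 34468 and 33869 with vehicle at 0, 4, 12 and 24 h. Each treated array lay below all vehicle arrays. The averaged Tnp2 difference was -0.13 ± 0.04 with gamendazole (limma adjusted p = 0.0836) and -0.16 ± 0.04 with lonidamine (adjusted p = 0.086).

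**Figure D2:**
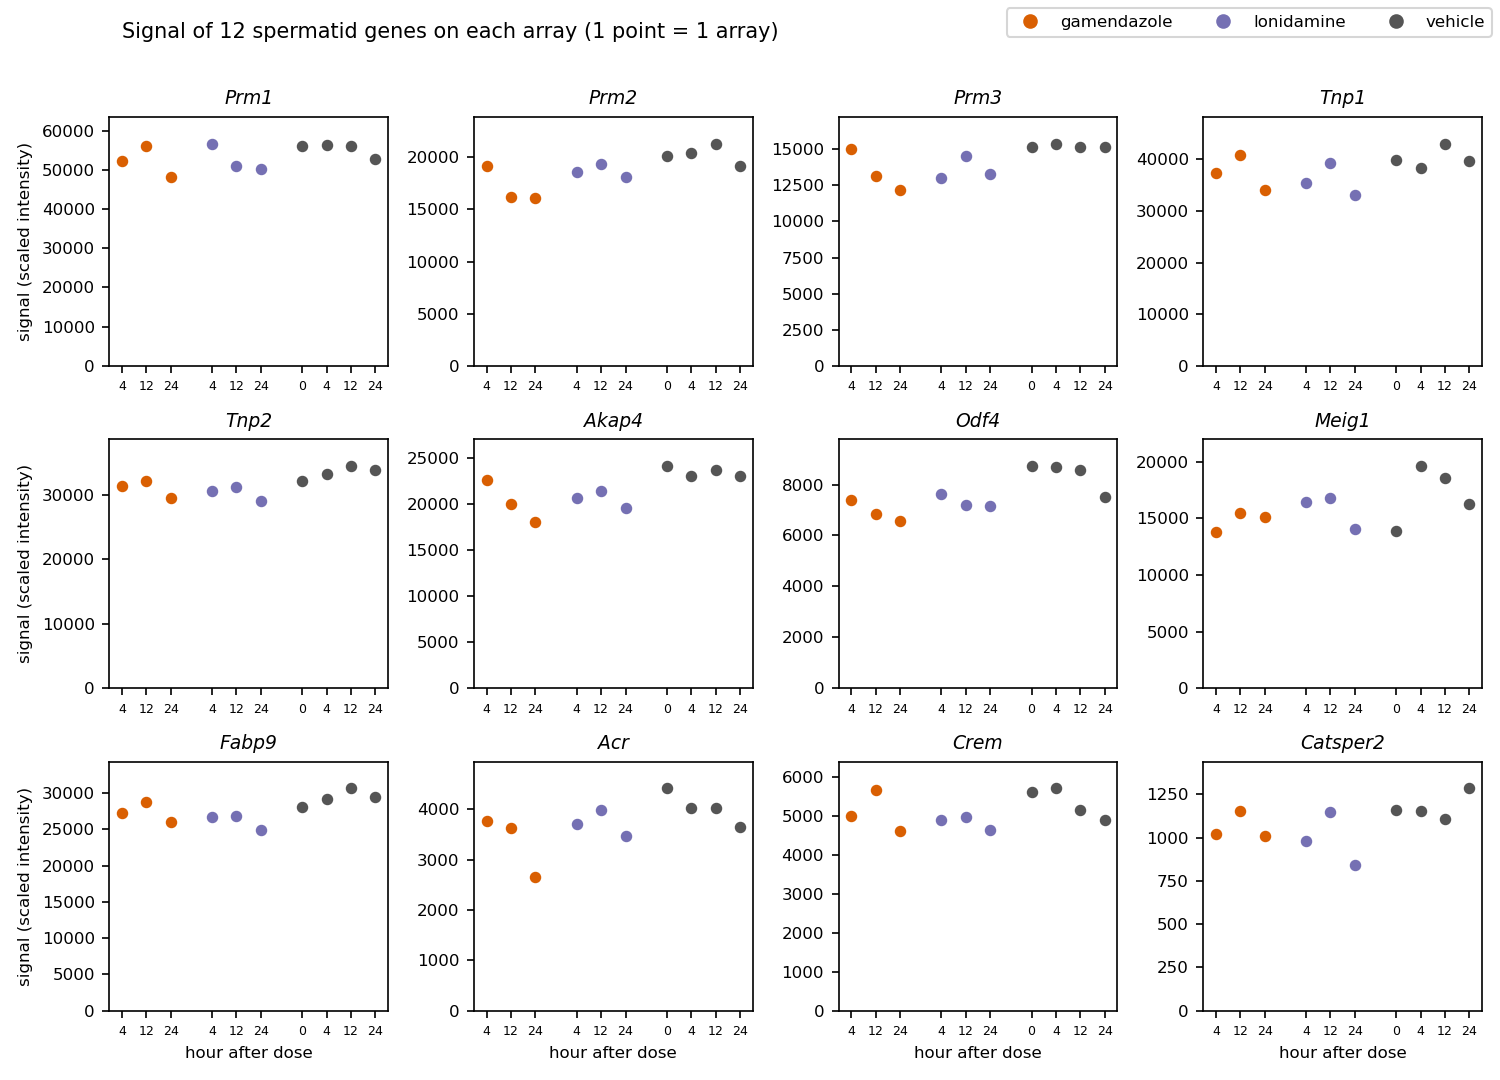
Deposited signal (vertical axis, linear units, starting at 0) of selected genes on each of the 10 arrays, by hour after injection (horizontal axis), for gamendazole, lonidamine and vehicle. Prm1 stood between 48278 and 56704 on all arrays, and the treated points of Prm3 and Tnp2 lie below all their vehicle points.

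The tail genes form the largest group, with 20 of 21 on the array. They encode parts of the outer dense fibres, the fibrous sheath, the axoneme and the mitochondrial sheath. With gamendazole 18 of 20 averaged differences were negative with a median of -0.12, and with lonidamine 19 of 20 with a median of -0.12; after cyclic loess 9 and 11 of 20 were negative. Odf4, a transmembrane member of the outer dense fibre family, was the only one of the 40 genes to pass the averaged test. It read 7410.3, 6835 and 6586 at 4, 12 and 24 h after gamendazole and 7619.5, 7187 and 7156 after lonidamine, against 8728, 8676, 8577 and 7529.6 with vehicle at 0, 4, 12 and 24 h. Every gamendazole array lay below all 4 vehicle arrays, and vehicle 24 h was the lowest of the vehicle arrays. Odf4 fell to 84.1% of vehicle with gamendazole (log2 -0.25 ± 0.05, limma adjusted p = 0.0332), and stood with lonidamine at 88.8% (log2 -0.17 ± 0.05, adjusted p = 0.205). Over 17 other settings its gamendazole adjusted p ranged between 0.0306 and 0.46 and passed in 7. Its second probe set had an averaged gamendazole difference of -0.14 ± 0.08 (limma adjusted p = 0.352).

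Meig1, which in mouse is needed to deliver tail proteins along the manchette, had the lowest averaged gamendazole difference among the bright genes. It read 13741, 15502 and 15151 at 4, 12 and 24 h after gamendazole and 16410.3, 16825 and 14044 after lonidamine, against 13908, 19612, 18531 and 16278 with vehicle at 0, 4, 12 and 24 h. The low vehicle array at 0 h lies within the treated range, so the groups overlapped. The averaged differences, which leave 0 h out, were -0.29 ± 0.07 with gamendazole (limma adjusted p = 0.0534) and -0.20 ± 0.07 with lonidamine (adjusted p = 0.269). Without the 24 h arrays Meig1 was the only one of the 40 called with gamendazole, and set against all 4 vehicle arrays its gamendazole 24 h signal did not pass (limma adjusted p = 0.597).

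Akap4, the major protein of the fibrous sheath and an anchor of protein kinase A, read 22626, 19999 and 18029.5 at 4, 12 and 24 h after gamendazole and 20645, 21479.5 and 19561 after lonidamine, against 24175, 23066, 23726 and 23081 with vehicle at 0, 4, 12 and 24 h. No treated array reached the lowest vehicle array. Gamendazole 24 h was the lowest of all, at 76.7% of the mean of the 4 vehicle arrays (log2 -0.38 ± 0.05, limma adjusted p = 0.00365 over all probe sets), and lonidamine 24 h stood at 83.2% (log2 -0.27 ± 0.05, adjusted p = 0.018). Gapdhs, the sperm glyceraldehyde-3-phosphate dehydrogenase bound to that sheath, read 31216, 30028 and 26888 with gamendazole and 28629, 30212 and 27645 with lonidamine, against 32643, 32166, 32572 and 30673 with vehicle. Its lonidamine arrays all lay below vehicle, and gamendazole 4 h overlapped the vehicle range.

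Odf1, a main protein of the outer dense fibres, read 35609, 35632 and 31524 with gamendazole and 34521, 35498 and 31774 with lonidamine, against 38449.8, 36540.1, 38078 and 35373 with vehicle in the same order of hours. The 24 h arrays were lowest with both drugs, and gamendazole 4 and 12 h and lonidamine 12 h overlapped vehicle 24 h. Odf2, which also occurs in centrosomes, read 32836, 34012 and 29821 with gamendazole and 31797, 33586 and 30047 with lonidamine, against 36037, 35048, 36784 and 34595 with vehicle. Its treated arrays all lay below the vehicle arrays, and its averaged gamendazole difference of -0.14 ± 0.04 missed the threshold (limma adjusted p = 0.061). A dimmer Odf2 probe set had averages of the opposite sign, 0.12 with gamendazole and 0.05 with lonidamine (limma adjusted p = 0.714 and 0.939).

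Spata6, needed in mouse for the joint of head and tail, read 32854, 31049 and 28545 with gamendazole and 31162, 31747 and 29066 with lonidamine, against 33590.1, 33831, 33722 and 32417 with vehicle. Only gamendazole 4 h reached the vehicle range. Oaz3, a testis form of ornithine decarboxylase antizyme, read 39358, 38168 and 34487 with gamendazole and 38026, 38467 and 34923 with lonidamine, against 40678, 41065, 41626 and 39896 with vehicle, so all treated arrays were below all vehicle arrays. Spata19, a mitochondrial protein of the midpiece, read 24976, 23245 and 21107 with gamendazole and 24114, 25059 and 21214 with lonidamine, against 24762, 26044, 26485 and 24258 with vehicle. Its 24 h arrays were the lowest of each drug, and gamendazole 4 h and lonidamine 12 h lay within the vehicle range. Tekt1, a tektin filament protein of the axoneme, read 14275, 13150.5 and 11829.8 with gamendazole and 13288, 13942 and 12367 with lonidamine, against 15016, 14576, 14561 and 14416 with vehicle, with every treated array below every vehicle array.

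Smcp, a cysteine-rich protein of the mitochondrial capsule, differed least among the 12 brightest genes with gamendazole. It read 41793, 41928 and 37998 with gamendazole and 42214, 39013 and 37950.1 with lonidamine, against 42388, 42574, 40522 and 42603 with vehicle. The 12 h vehicle array was the low one, and gamendazole 4 and 12 h lay above it. After cyclic loess Smcp and Prm1 were called higher at 12 h after gamendazole (limma adjusted p = 0.0249 and 0.00489), while on the deposited scale they stood at 99.8% and 101% of vehicle (adjusted p = 0.976 and 0.838).

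The dimmer tail genes varied more. Tekt5, another tektin, read 1524, 1874 and 1914 with gamendazole and 1371, 1436 and 1682 with lonidamine, against 1369, 1449, 1369 and 2150.1 with vehicle. Its 24 h vehicle array was higher than all others, and its gamendazole average was positive, 0.12 ± 0.11 (limma adjusted p = 0.603). Cabyr, a calcium-binding protein of the fibrous sheath, read 406, 267 and 368 with gamendazole and 321, 319.6 and 290 with lonidamine, against 322, 328, 331 and 291 with vehicle, with gamendazole 4 and 24 h above and gamendazole 12 h below all vehicle arrays. Its gamendazole average was also positive, 0.11 ± 0.18 (limma adjusted p = 0.769).

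Catsper2, a subunit of the calcium channel of the tail, read 1020.3, 1153 and 1006 with gamendazole and 978, 1146 and 844 with lonidamine, against 1159, 1151, 1107 and 1284 with vehicle. Lonidamine 24 h was the lowest array, and it lay at least 1.5-fold below the vehicle array of its hour, log2 -0.61, where 7.73% of tested probe sets were at least 1.5-fold lower. Its dimmer second probe set did not share this, with a log2 difference of 0.08 at that hour and a lonidamine average of -0.01 ± 0.19 (limma adjusted p = 0.989). The values that follow are of lonidamine 24 h at the brighter probe set. Against the mean of the 4 vehicle arrays it stood at 71.9% (log2 -0.48 ± 0.12, limma adjusted p = 0.0557), on the other side of the threshold after quantile normalization (0.0394) and cyclic loess (0.0485). The remaining tail genes, Akap3, Tekt2, Tekt3, Tekt4, Ropn1l and Spag16, passed no test on the deposited scale, with averages between -0.12 ± 0.06 for Akap3 and -0.04 ± 0.06 for Tekt2 with gamendazole. Tekt2 had the only positive lonidamine average of the 40, 0.01 ± 0.06 (limma adjusted p = 0.968).

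The acrosome and sperm surface genes numbered 8 of 9 on the array. All 8 averages were negative with both drugs, with medians of -0.12 for gamendazole and -0.06 for lonidamine, and after cyclic loess 4 and 5 of 8 were. None passed the averaged test (limma; 3 with gamendazole and 2 with lonidamine at an unadjusted p under 0.05). At that p, 9.03% of all probe sets and 53.8% of other bright ones were lower with gamendazole, and 4.75% and 48.4% with lonidamine. Acr encodes acrosin, the main protease of the acrosome, and read 3760.1, 3626 and 2659.9 at 4, 12 and 24 h after gamendazole and 3713, 3991 and 3465 after lonidamine, against 4416, 4030.2, 4027 and 3640.2 with vehicle at 0, 4, 12 and 24 h. Gamendazole 24 h was below the other 9 arrays. It stood at 66.2% of the mean of the 4 vehicle arrays (log2 -0.60 ± 0.10, 95% interval 56.0 to 78.2%, limma adjusted p = 0.0139), and it stayed past the threshold after quantile normalization (0.0204), cyclic loess (0.0123) and centring on the brightest 20% of probe sets (0.0122). It was not called without vehicle 12 h, with a higher floor or with no filter. Lonidamine 24 h stood at 86.2% (adjusted p = 0.286).

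Capza3, the actin-capping subunit specific to spermatids, read 17452, 16401 and 15343 at 4, 12 and 24 h after gamendazole and 15953, 16845 and 15378 after lonidamine, against 17788, 18139, 18870.1 and 17892 with vehicle at 0, 4, 12 and 24 h. Every treated array lay below every vehicle array, with averages of -0.16 ± 0.05 for gamendazole and -0.19 ± 0.05 for lonidamine (limma adjusted p = 0.092 and 0.112). Fabp9, a fatty acid-binding protein of the perforatorium beneath the acrosome, read 27297, 28721 and 25989.6 with gamendazole and 26728, 26815 and 24854 with lonidamine, against 28089.8, 29253, 30657 and 29493 with vehicle. Its lonidamine arrays lay below all vehicle arrays, and its lonidamine average was the closest of the 40 to the threshold (-0.19 ± 0.04, limma adjusted p = 0.0536).

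The other acrosome genes differed little. Acrv1, which encodes the acrosomal matrix protein SP-10, read 5773, 5683 and 5233 with gamendazole and 5560.3, 5632 and 5630.3 with lonidamine, against 6449.9, 5897, 5649 and 5763 with vehicle. Spaca3, a lysozyme-like protein of the acrosome, read 6034, 6358 and 5809 with gamendazole and 5781, 6472 and 5924 with lonidamine, against 6996, 6639.8, 6077 and 5909 with vehicle. In both, vehicle 0 h was the highest array and most treated arrays lay near the vehicle values of 12 and 24 h. The gamendazole averages were -0.05 ± 0.06 for Acrv1 and -0.03 ± 0.06 for Spaca3 (limma adjusted p = 0.644 and 0.819). The zona-binding proteins Zpbp and Zpbp2 and the surface protein Adam2, fertilin beta, had gamendazole averages of -0.07 ± 0.06, -0.12 ± 0.09 and -0.13 ± 0.06 and passed no test.

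The 7 genes of control and other roles had medians of -0.16 with gamendazole and -0.15 with lonidamine, all 7 negative with each drug. None passed the averaged test (limma; 4 with each drug at an unadjusted p under 0.05). Lower at that p were 9.03% of all probe sets and 53.8% of other bright ones with gamendazole, and 4.75% and 48.4% with lonidamine. Crem, the transcription factor that switches on many spermatid genes, read 5000.1, 5650.3 and 4613 at 4, 12 and 24 h after gamendazole and 4881, 4960.1 and 4634 after lonidamine, against 5599, 5699.7, 5138 and 4900.5 with vehicle at 0, 4, 12 and 24 h at the probe set used here. The arrays overlapped, and the averages were -0.05 ± 0.07 with gamendazole and -0.12 ± 0.07 with lonidamine (limma adjusted p = 0.759 and 0.535). The probe sets of Crem disagreed in sign, and all its other tested probe sets had positive averages with both drugs. The next brightest, at a mean signal of 2250, averaged 0.10 ± 0.07 with gamendazole and 0.01 ± 0.07 with lonidamine (limma adjusted p = 0.47 and 0.967). A dim one read 396, 390.3 and 338 with gamendazole and 265, 373 and 588 with lonidamine, against 323, 224, 285 and 318 with vehicle, with positive averages of 0.45 ± 0.23 and 0.51 ± 0.23 (limma adjusted p = 0.303 and 0.396). Crem has several transcript forms that the labels do not assign to probe sets.

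Tssk2, a serine kinase of spermatids, read 17057, 15586 and 14931 at 4, 12 and 24 h after gamendazole and 15706, 16861 and 15372 after lonidamine, against 17979, 17669, 18059.6 and 18084 with vehicle at 0, 4, 12 and 24 h. Vehicle arrays were tight, and all treated arrays lay below them. Spata20, a thioredoxin-like sperm protein, read 17906, 16691 and 15070 with gamendazole and 16464, 17064 and 16574 with lonidamine, against 18926, 17947, 18894 and 18919.9 with vehicle, also without overlap, and its second probe set passed the averaged gamendazole test (log2 -0.27 ± 0.06, limma adjusted p = 0.0423) where the brightest did not (-0.17 ± 0.06, adjusted p = 0.144). Spata24 read 17195, 16627 and 15042 with gamendazole and 16608, 16893 and 15708 with lonidamine, against 18554, 18413, 18096 and 17807 with vehicle. Tcp11, linked in mouse to cyclic AMP signalling in sperm, read 17378, 18069 and 15595 with gamendazole and 17443, 18118 and 16793 with lonidamine, against 20152, 19199, 18817 and 19040.5 with vehicle. Neither of the last 2 genes had a treated array that reached its vehicle range.

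Hook1, which in mouse is needed for a normal manchette, read 2083, 2548 and 2448 with gamendazole and 2609, 2164 and 2086 with lonidamine, against 2086, 2697, 2549 and 2599.7 with vehicle. Vehicle 0 h was as low as gamendazole 4 h, so the groups overlapped, and the averages were -0.15 ± 0.11 and -0.20 ± 0.11 with gamendazole and lonidamine (limma adjusted p = 0.473 and 0.49). Hspa1l, a heat shock protein of spermatids, was dim. It read 21.8, 66.3 and 33.1 with gamendazole and 39.3, 125 and 59.6 with lonidamine, against 67.9, 219, 61.2 and 21.1 with vehicle, with gamendazole 4 h, gamendazole 24 h and vehicle 24 h under the floor of 37.1. Its vehicle arrays had a coefficient of variation of 94.0%, and its 1.5-fold differences, lower at 4 h with both drugs and higher at 12 and 24 h with lonidamine, involved values that all lay within the vehicle range. At least 1.5-fold lower at 4 h were 7.91% of tested probe sets with gamendazole and 5.44% with lonidamine, and at least 1.5-fold higher with lonidamine were 9.57% at 12 h and 12.5% at 24 h.

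Among the brightest probe sets, others showed much of the same shift. Among probe sets with a mean signal of 10000 or more, the 24 genes had a median log2 difference of -0.14 with gamendazole and -0.14 with lonidamine, and the 366 other probe sets had -0.12 and -0.11. Of those 24 genes, 24 were lower with gamendazole and 23 with lonidamine, and of the 366 others 346 were lower with each drug. After cyclic loess the median of the 24 genes was 0.01 with gamendazole and -0.01 with lonidamine, so the direction with gamendazole depends on the scaling; cyclic loess draws bright probe sets to 0 by construction. The other bright probe sets made up 23.6 to 25.1% of array signal with gamendazole and 23.9 to 24.7% with lonidamine, against 25.5 to 25.7% with vehicle. Among 22 bright ribosomal protein probe sets, a set added after values were seen and not specific to spermatids, the medians were -0.07 with gamendazole and -0.11 with lonidamine.

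In bands of brightness, 12 genes of 20000 or more had medians of -0.12 with gamendazole and -0.14 with lonidamine, beside -0.11 and -0.12 for 64 other probe sets. The 12 genes between 10000 and 20000 had -0.16 and -0.14, beside -0.12 and -0.11 for 302 others. The 8 genes between 5000 and 10000 had -0.08 and -0.08, beside -0.11 and -0.09 for 576 others. The 6 genes between 1000 and 5000 had -0.13 and -0.13, beside -0.06 and -0.03 for 3616 others, so the gap was wider in that band. Only Cabyr and Hspa1l were dimmer. Counted one by one, 27 of the 40 genes lay below the median of other probe sets in their band with gamendazole and 30 with lonidamine. No test of the list was made, because its genes were chosen with results of these data known.

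**Figure D3:**
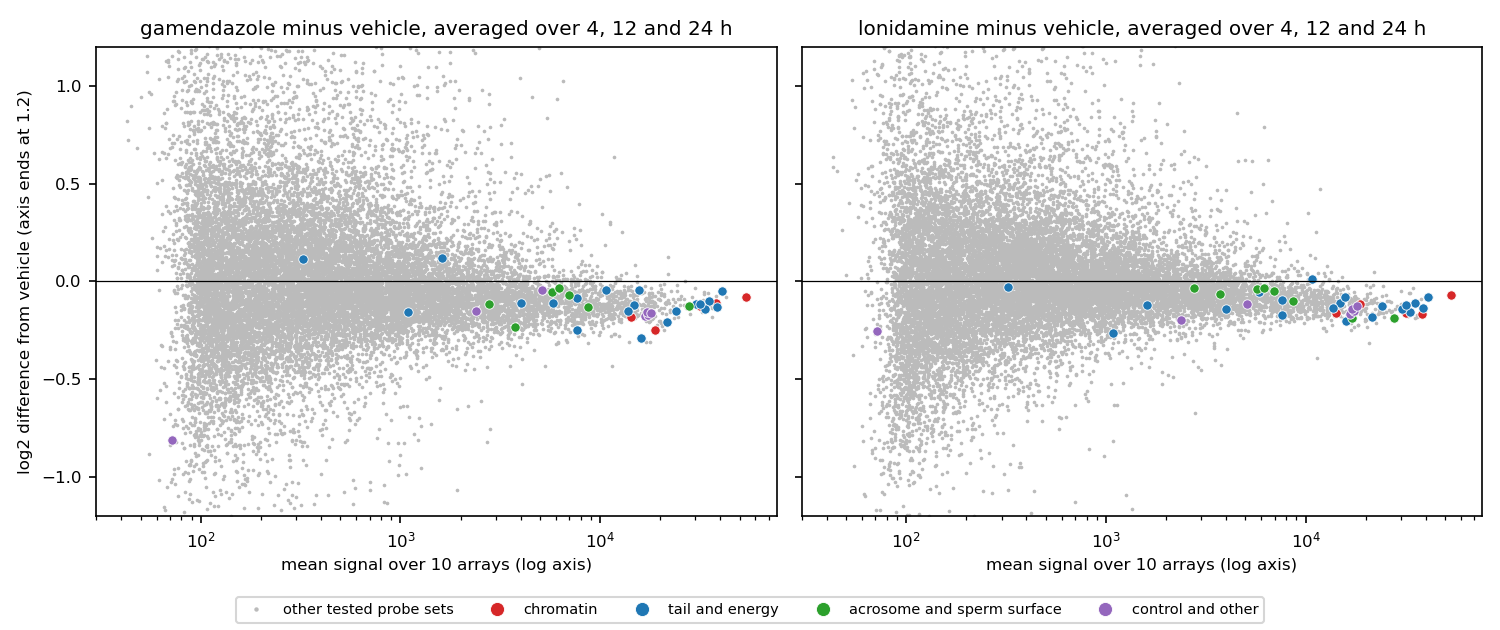
Log2 difference from vehicle averaged over 4, 12 and 24 h (vertical axis, ends at 1.2) against mean signal over the 10 arrays (horizontal log axis) for all tested probe sets (grey) and the 40 genes (coloured by role). On the deposited scale, the genes sit below 0 along with the bright grey points, with medians of -0.14 for genes and -0.12 for other probe sets at 10000 or more with gamendazole; after cyclic loess the genes' median there was 0.01.

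By hour, the median over the 40 genes was -0.06, -0.12 and -0.19 at 4, 12 and 24 h after gamendazole and -0.12, -0.10 and -0.17 after lonidamine, each against the vehicle array of the hour. The 24 h value was the lowest with both drugs. For the 24 bright genes it was -0.05, -0.12 and -0.21 after gamendazole and -0.13, -0.10 and -0.19 after lonidamine, beside -0.05, -0.13 and -0.18 and -0.11, -0.09 and -0.14 for the 366 other bright probe sets. Between pairs of vehicle arrays, later minus earlier, the median of the 40 genes lay between -0.06 and -0.0031. The lowest of these involved the 24 h vehicle array, which was itself low for Prm1, Odf4 and Spata6. After cyclic loess the 12 h median with gamendazole was 0.05 and the 24 h medians were -0.01 and -0.04 with gamendazole and lonidamine, so the direction at 12 h depends on the scaling.

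**Figure D4:**
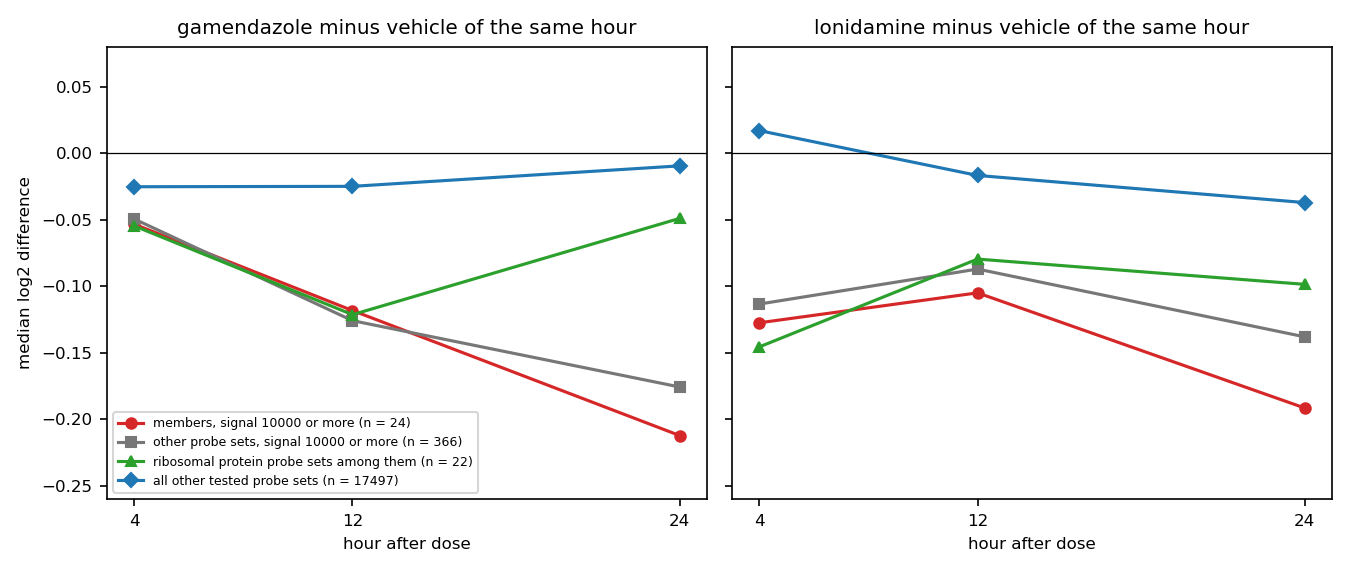
Median log2 difference from the matching vehicle array (vertical axis) by hour (horizontal axis) for the 24 bright genes, the 366 other bright probe sets, the 22 ribosomal protein probe sets among these and all other tested probe sets, after gamendazole (left) and lonidamine (right). On the deposited scale the bright genes reached -0.21 at 24 h after gamendazole and -0.19 after lonidamine, beside -0.18 and -0.14 for other bright probe sets; after cyclic loess the gamendazole 12 h median of the 40 genes was 0.05.

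Each treated array was also set against all 4 vehicle arrays, a fit whose spread comes only from vehicle. At 4 h, 0 of the 40 genes passed with either drug (limma adjusted p), where 0.103% of probe sets were called lower with gamendazole and 0.0171% with lonidamine. At an unadjusted p under 0.05, 2 were lower with gamendazole, where 5.19% of all were, and 15 with lonidamine, where 4.18% were. Of the 24 bright genes 8.33% and 62.5% were lower at that p, beside 6.56% and 34.2% of the 366 other bright probe sets. At 12 h after gamendazole Prm2, Prm3, Akap4 and Tssk2 fell, 4 of 40, where 2.85% of all probe sets were called lower, and after lonidamine 0 passed (limma; 7 lower at an unadjusted p under 0.05, where 4.79% of all were), where 0.142% were. Of the 24 bright genes 16.7% were called lower at 12 h after gamendazole, beside 9.02% of the 366 other bright probe sets. After lonidamine 20.8% were lower at that unadjusted p, beside 18.6% of the others. Below all 4 vehicle arrays at 12 h after gamendazole lay 62.5% of the bright genes and 74.9% of the others. The 12 h count with gamendazole was 0 without vehicle 4 h or vehicle 12 h and 2 without vehicle 0 h. After cyclic loess 0 of the 40 were called lower at that hour.

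At 24 h after gamendazole 17 of 40 genes fell, where 4.09% of all probe sets were called lower. They were Prm1, Prm2, Prm3, Akap4, Odf1, Odf2, Gapdhs, Spata6, Spata19, Tekt1, Oaz3, Acr, Capza3, Tssk2, Spata20, Spata24 and Tcp11. At 24 h after lonidamine 14 of 40 fell, where 1.98% were called lower, namely Prm3, Tnp1, Tnp2, Akap4, Odf2, Gapdhs, Spata6, Spata19, Tekt1, Oaz3, Fabp9, Capza3, Tssk2 and Spata24. None of the 40 was called higher on any array on the deposited scale with all 4 vehicle arrays. When vehicle 24 h, the vehicle array highest for Tekt5, was left out, Tekt5 was called higher at gamendazole 24 h, beside 18 genes called lower. Called higher among all probe sets were 1.05, 4.91 and 5.69% at 4, 12 and 24 h with gamendazole and 0.0513, 1.28 and 5.03% with lonidamine. The counts rest on the vehicle arrays used: with gamendazole 24 h the count was 10 without vehicle 4 h and 7 without vehicle 12 h, and with lonidamine 24 h it was 7, 1, 0 and 9 without vehicle 0, 4, 12 and 24 h. After cyclic loess or quantile normalization only Acr remained with gamendazole and Catsper2 was called with lonidamine.

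The calls at 24 h fell mostly on bright genes. Of the 24 genes of 10000 or more, 16 were called lower at 24 h after gamendazole and 14 after lonidamine (66.7 and 58.3%), beside 137 and 55 of the 366 other bright probe sets (37.4 and 15.0%). The median SD of log2 signal over the 4 vehicle arrays was 0.07 for the 40 genes, 0.05 for other bright probe sets and 0.17 for all tested probe sets. The 40 genes include 16 under 10000, so their SD is not matched to that of the bright probe sets. Below all 4 vehicle arrays at 24 h lay 33 of 40 genes with each drug. Of all probe sets 30.6% did with gamendazole and 31.2% with lonidamine. Of the 24 bright genes 91.7% and 87.5% did, beside 83.3% and 84.2% of the other bright probe sets. The 3'/5' ratio of the GAPDH control was 0.853 with gamendazole 24 h, the highest of the 10 arrays, and its part in the 24 h differences was not tested. Over all 3 hours, 13 of 40 had every gamendazole array below every vehicle array, and 19 of 40 had every lonidamine array there. Of all probe sets 8.97% and 7.15% did. Of the 24 bright genes 45.8% and 58.3% did, beside 33.3% and 50.3% of the other bright probe sets.

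The intervals bound the loss of the bright genes. At 24 h the 24 bright genes stood at a median of 84.5% of the vehicle mean with gamendazole, between 76.7% for Akap4 and 102% for Ropn1l, and at 86.3% with lonidamine, between 82.5% for Tnp1 and 102% for Ropn1l. The lowest bound of their 95% intervals was 68.8% with gamendazole and 63.7% with lonidamine, both for Meig1. Dimmer genes had lower bounds at 24 h. Acr stood at 66.2% with gamendazole (interval 56.0 to 78.2%), and Zpbp2 at 85.0% with a wide interval, 63.1 to 114%. Catsper2 stood at 71.9% with lonidamine (59.5 to 86.9%), and Hspa1l, close to the floor, had bounds down to 11.7% with gamendazole and 18.7% with lonidamine. For averages of the bright genes over the hours the lowest bound was 73.2% with gamendazole and 77.8% with lonidamine, again for Meig1. These intervals assume that the deposited scaling holds between arrays and that treated testes vary no more than vehicle testes.

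**Figure D5:**
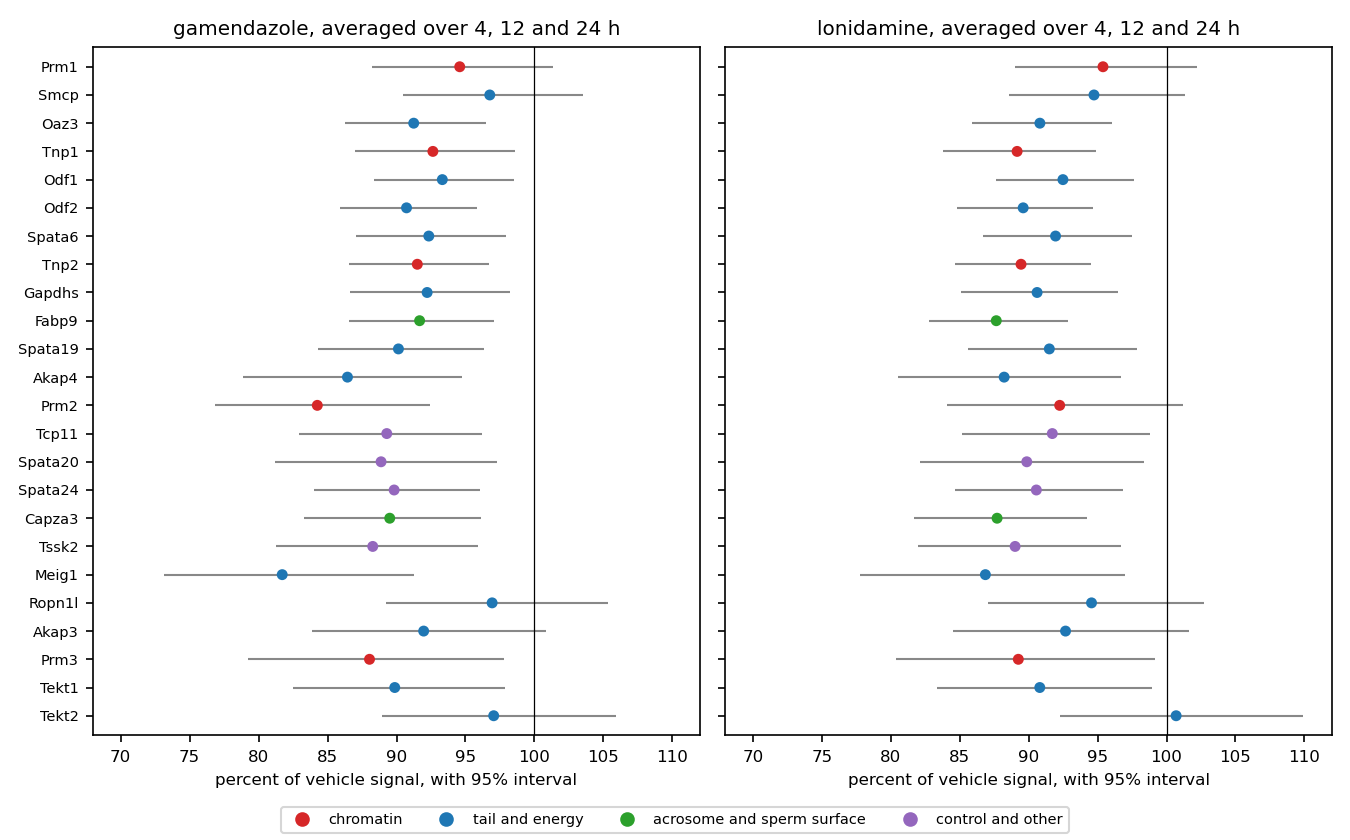
Signal as percent of vehicle averaged over 4, 12 and 24 h (horizontal axis, points) with 95% intervals from limma (lines) for the 24 genes with a mean signal of 10000 or more, after gamendazole (left) and lonidamine (right), coloured by role. Estimates lie between 81.7% for Meig1 and 97.0% for Tekt2 with gamendazole, and no interval goes below 73.2%.

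Other genes of the spermatid program had differences of like size. Of 49 further genes for spermatid structure, 17 were on the array; 15 were lower with gamendazole and 16 with lonidamine, with medians of -0.14 and -0.13, and 0 passed the test (limma; 8 and 5 lower at an unadjusted p under 0.05). They include Ldhc, the sperm lactate dehydrogenase, at -0.17 with gamendazole and -0.14 with lonidamine, and Hils1, a spermatid linker histone, at -0.09 and -0.16. Of 20 regulators, 11 were on the array with medians of -0.13 and -0.10, and 0 passed (limma; 7 and 2 lower at an unadjusted p under 0.05). Among markers of spermatocytes, the meiotic cells before the spermatid stage, 17 were tested. Their medians were -0.13 with gamendazole and -0.10 with lonidamine, and 0 passed (limma; 5 and 2 lower at an unadjusted p under 0.05). At that p, 9.03% of all probe sets and 53.8% of other bright ones were lower with gamendazole. With lonidamine 4.75% and 48.4% were. These lists hold both bright and dim genes, and their counts were not matched for brightness.

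Some markers of other cells moved on the same arrays. Of 16 tested macrophage and leukocyte markers C1qa and S100a9 rose with gamendazole (C1qa by log2 0.87 ± 0.18, limma adjusted p = 0.028 and 0.031). S100a9 read 77.6, 370.9 and 179 with gamendazole and 35.9, 143 and 123 with lonidamine, against 53.7, 1, 43.8 and 13 with vehicle, so vehicle was at or near the floor of 37.1 and no fold is given. The list's median was 0.53 with gamendazole and 0.33 with lonidamine, with 2 and 4 of the 16 averages negative. The summed signal of the 18 on the array was 14418 to 17567 and 13180 to 17570, against 13802 to 14605 with vehicle. Aif1 makes up the largest part of these sums, at 7723 to 8340 with vehicle, and averaged -0.15 with each drug. S100a8 lay under the floor on all vehicle arrays. Of 11 tested Sertoli markers Aqp8 and Ctsl rose with both drugs and Inhbb fell with gamendazole, and 3 of the 11 averages were negative with each drug. The summed signal of the 14 on the array was 42603 to 49037 with gamendazole and 39521 to 48387 with lonidamine, against 35704 to 37870.3 with vehicle. Ctsl alone read 6020, 9743 and 11745 with gamendazole and 4454, 6070 and 9246 with lonidamine, against 3402 to 3799 with vehicle. Clu, the brightest of the list, averaged 0.04 and 0.05. Of 2 tested erythrocyte markers Hbb rose with gamendazole (log2 1.04 ± 0.20, limma adjusted p = 0.0242), while Alas2 averaged -0.22 ± 0.15 (adjusted p = 0.458) and read 616 at gamendazole 24 h, against 901 to 1003 with vehicle. Hbb makes up most of their sums of 4766 to 8664 with gamendazole and 4053 to 5206 with lonidamine, against 2990 to 4095 with vehicle. Of 12 tested Leydig markers Akr1c14 rose with both drugs and Hsd11b1 with gamendazole, while the list's median at 24 h was -1.09 with gamendazole and -0.93 with lonidamine. The summed signal of the 13 on the array was 10402 to 19631 with gamendazole and 10192 to 11842 with lonidamine, against 11171 to 14818 with vehicle. Cyp17a1, a steroidogenic enzyme of Leydig cells, read 1739, 393 and, under the floor, 5.8 with gamendazole and 1006, 434 and 69.4 with lonidamine, against 1174 to 1315 with vehicle, and did not pass the averaged test (limma adjusted p = 0.156 and 0.293). By the averaged test with gamendazole, Itga6 rose and Dmrt1 fell among 6 spermatogonial markers, and Tagln rose among 7 peritubular muscle markers. Krt19 rose and Epcam fell among 3 epididymal markers. The medians of these lists were -0.21, 0.10 and -0.12, with 4, 1 and 2 averages negative. The epididymal markers Defb1 and Adam7 lay under the floor on all vehicle arrays and were not tested. Of 4 tested endothelial markers 0 passed with either drug, with medians of -0.41 with gamendazole and 0.34 with lonidamine. The part of these cells in the spermatid differences was not tested.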

How the data were processed

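RNA of rat testis was hybridised to 10 Affymetrix Rat230_2 arrays. Per the labels, biotin-labelled cRNA was made by the single-cycle procedure; per the submitters' processing notes, GCOS 1.1 was used. The authors deposited 1 linear intensity for each probe set, and their scaling to a trimmed mean of 500 was read from the values themselves. From 31042 probe sets without controls, signals were raised to a floor at the 25th percentile of all arrays together (37.1) and log2-transformed. The 17549 probe sets that reached the median of all arrays together (116.2) at least on 2 of them were tested with limma 3.58.1 in R 4.3.3 (lmFit, eBayes with trend) and Benjamini-Hochberg adjustment at 0.05. The averaged fit left 4 residual degrees of freedom, and the fit of each treated array against 4 vehicle arrays left 3. Both fits were tested on simulated data with known changes for gamendazole. A log2 change of -0.5 was called for 13 of 50 probe sets by the averaged fit and for 1 of 50 by the 24 h fit. A change of -1 was called for 28 and 18 of 50. The simulation ran over all 17549 tested probe sets, whose median SD of log2 signal over the vehicle arrays was 0.17. For the genes described here that SD was 0.07, so the simulation does not show how often their changes would be called. Genes that did not pass may still differ. P-values take hours or vehicle arrays in place of replicates, and this spread may be technical. Genes given with every array's signal were the chromatin genes, the 2 lowest and 2 highest gamendazole averages in each other role, those past a threshold or at least 1.5-fold from vehicle, and Crem. The genes and lists were chosen with earlier results of these data known. Alternatives covered the floor, the filter, the normalization, the hour, the hybridisation run, the probe set and leaving arrays out. The number of arrays limits the precision.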

Additional observations from a re-analysis of the deposited data

Results flagged for a closer look

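Among the 4 vehicle arrays, 1 array stood apart from the other 3 by Dixon's criterion for 6 of the 40 genes. For a single gene chance gives about 1 in 20, but the 40 genes share the same arrays and are not independent. The share over all probe sets was not counted, so 6 of 40 is not read as an excess. Vehicle 24 h was the low array for Prm1 (52779.1), Odf4 (7529.6) and Spata6 (32416.6) and the high array for Tekt5 (2150.1). Vehicle 12 h was the low array for Smcp (40522.2), and vehicle 4 h for Spata20 (17947.3). The 24 h differences of Prm1, Odf4, Spata6 and Tekt5 from the vehicle array of the hour rest on that array. Against the mean of all 4 vehicle arrays, 24 h levels with gamendazole were 87.2% for Prm1 (limma adjusted p = 0.0396), 78.8% for Odf4 (0.0536), 85.5% for Spata6 (0.0185) and 123% for Tekt5 (0.492). With lonidamine they were 90.5% for Prm1 (0.123), 85.6% for Odf4 (0.199), 87.1% for Spata6 (0.0336) and 108% for Tekt5 (0.84). Against vehicle 24 h alone Tekt5 stood at 89.0% with gamendazole and 78.2% with lonidamine, so it lay above vehicle on the first basis and below it on the second. Whether the position of vehicle 24 h is technical was not tested.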

How the results depend on the processing

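The deposited scale, the floor, the filter and the choice of arrays all moved counts of called genes, and no averaged difference of a single gene changed sign while past the threshold. With gamendazole averaged over hours the count of 1 became 0 with a floor at the 50th percentile, no filter, quantile normalization, cyclic loess, eBayes without trend, no hour, the run in place of the hour, or the mean of all probe sets. It became 3 with a filter at the 75th percentile, 2 with the 0 h vehicle array added, between 0 and 15 when an hour was left out, and 14 without gamendazole 4 h, an alternative chosen after seeing the data. With lonidamine the count of 0 became at most 2 when an hour was left out (0 without the 24 h arrays) and 5 without gamendazole 4 h. Calls over all probe sets, in either direction, moved as well. With gamendazole, 693 became 0 with no filter or without the 12 h arrays, 1646 without the 4 h arrays and 1162 without gamendazole 4 h. With lonidamine, 137 became 0 with no filter or without the 12 h arrays, 600 without the 4 h arrays and 225 without gamendazole 4 h.

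At 12 h after gamendazole the count of 4 became 1 with no filter, 0 with quantile normalization, 2 with cyclic loess (both higher), 1 when centred on the brightest 20%, and 0 to 3 when a vehicle array was left out. At 24 h after gamendazole the count of 17 became 11 with the higher floor, 4 with no filter, 1 with quantile normalization or cyclic loess, and 7 to 19 when a vehicle array was left out (the 19 being 18 lower and Tekt5 higher). At 24 h after lonidamine the count of 14 became 6 with the higher floor, 0 with no filter, 1 with quantile normalization or cyclic loess, 7 when centred on the brightest 20%, and 0 to 9 when a vehicle array was left out.

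The median of the 40 genes with gamendazole, -0.13 on the log2 scale, was -0.0314 with quantile normalization, -0.0043 with cyclic loess, -0.0868 when centred on the brightest 20%, -0.0898 to -0.1505 when an hour was left out, and -0.1549 without gamendazole 4 h. With lonidamine it was -0.0211, -0.0162 and -0.0999 under those 3 scalings. At 24 h with gamendazole, -0.19 became -0.0471, -0.0139 and -0.1354, and -0.2303 against the mean of the 4 vehicle arrays. At 24 h with lonidamine, -0.17 became -0.0265, -0.0424 and -0.1427, and -0.2004 against that mean. Quantile normalization and cyclic loess equalise bright probe sets by construction; the causes of the other changes were not tested. The labels carry no replicate numbers and link treated and vehicle arrays only by the hour. Per the instrument records, every treated array except gamendazole 4 h also shared its hybridisation run with the vehicle array of its hour. The averaged test has the hour as a block, and its gamendazole count was 0 without the hour. Signals near the floor limit only Hspa1l.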

Other observations

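Among the second probe sets of these genes, Spata6 read 22146, 20482 and 18927 with gamendazole and 20166, 20183 and 19026 with lonidamine, against 21120.3, 21357, 23345 and 22973 with vehicle at 0, 4, 12 and 24 h, with averages of -0.14 ± 0.06 and -0.19 ± 0.06 (limma adjusted p = 0.212 and 0.199). The second probe set of Spata24 had averages of -0.17 ± 0.08 and -0.14 ± 0.08 (limma adjusted p = 0.264 and 0.512). Spag16 had a second, dim probe set whose gamendazole values differed from vehicle by -1.62, -0.89 and 1.35 at 4, 12 and 24 h, without 1 direction. The regulator Taf7l, a spermatid form of a TFIID subunit, had a gamendazole average of -0.45 (limma adjusted p = 0.0799) and a lonidamine average of -0.27 (adjusted p = 0.399). Spam1, a sperm hyaluronidase, had positive averages with both drugs, 0.06 and 0.04 (limma adjusted p = 0.769 and 0.912).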
